A study of Bos taurus with 9 samples.

Results

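Cholesterol synthesis was followed through 7 genes, which were taken by symbol from the 20679 genes measured by RNA-seq in cultured bovine uterine glands. HMGCS1, IDI1, FDFT1, SQLE and DHCR7 encode enzymes of the pathway, whereas INSIG1 and SREBF2 encode proteins of the sterol-dependent control of those enzymes. Gland fragments from cow uteri were embedded in Matrigel and kept for 5 days in DMEM/F12 to which insulin, transferrin, selenite, ascorbic acid and BSA were added, in all groups alike. Without EGF the fragments formed cysts (CYST), and with EGF at 5 ng/ml they formed gland-like structures (UG-LIKE). The last group also had EGF and was kept in Matrigel that contained collagen I at 0.5 mg/ml (MAT + COL). Each group had 3 libraries, and the uteri were collected at an abattoir from cows with a corpus luteum (stage III of the cycle). The libraries hold whole cultures, so fewer cells of a type and less RNA per cell cannot be told apart.

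Cells build cholesterol from acetyl-CoA through mevalonate, isoprenoid units, squalene and lanosterol. When sterol in the endoplasmic reticulum is low, the transcription factor SREBP2, the product of SREBF2, is carried by SCAP to the Golgi, cut by the proteases MBTPS1 and MBTPS2, and moves to the nucleus to raise transcription of nearly every enzyme of the pathway. When sterol is plentiful, INSIG1 holds SCAP and SREBP2 back, and INSIG1 is itself an SREBP2 target. In the uterus, cholesterol serves as a membrane component and in the lipid supply of the endometrium to the conceptus.

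Total counts, the reads assigned to genes, ranged from 6568968 to 17948600 per library. Summed TPM (transcript abundance scaled for gene length and library size) of 7 epithelial markers was 16671 to 18481 in CYST, 27636 to 43347 in UG-LIKE and 28229 to 38551 in MAT + COL, so that CYST did not overlap the EGF groups. The keratins KRT8 and KRT19 made up 91.6% to 96.1% of this sum. Between UG-LIKE and CYST, EPCAM and CDH1 also did not overlap, whereas KRT18, PAX8 and FOXA2 did, and FOXA2 was at only 1.31 to 12.4 TPM. For 8 stromal fibroblast markers the sums were 2225 to 4798, 1191 to 3742 and 2197 to 4249 TPM, with overlap of all groups. Of these markers, VIM was higher in UG-LIKE than in CYST without overlap (452 to 796 against 238 to 312 TPM). PDGFRB was lower in UG-LIKE without overlap, but was at only 0.209 to 1.19 TPM in these groups. COL1A1, COL1A2, COL3A1, DCN, LUM and PDGFRA overlapped between UG-LIKE and CYST, each with a lower mean in UG-LIKE. Endothelial markers summed to at most 26.1 TPM and immune markers to at most 48.3 TPM in any library, and the T cell marker CD3E did not exceed 0.568 TPM. Smooth muscle markers summed to 43.8 to 83.8 TPM in CYST, 24.3 to 48.2 TPM in UG-LIKE and 42.0 to 48.0 TPM in MAT + COL. The part of these markers in the results on the cholesterol genes was not tested.

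All 7 cholesterol genes were expressed in every library, and the enzymes were among the more abundant transcripts. Their summed TPM took 0.101% to 0.176% of all TPM in a library. HMGCS1 and FDFT1 were the highest, with 216 to 603 and 330 to 592 genes above them in a library. Between 666 and 1899 genes stood above SQLE, IDI1 and DHCR7, and 1899 to 3798 stood above INSIG1. SREBF2 was the lowest, with 5537 to 6633 genes above it. Read counts were ample for each, from 210 to 747 for SREBF2 up to 5463 to 23290 for HMGCS1. All 7 passed the filter on low counts in the 3 comparisons.

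HMGCS1 (ENSBTAG00000011839, chromosome 20, 31431059 to 31456871, plus strand, ARS-UCD2.0) encodes HMG-CoA synthase, which makes the HMG-CoA that is reduced to mevalonate. Its TPM was 435, 558 and 314 in CYST replicates 1, 2 and 3. The same replicates stood at 350.4, 409.7 and 467 TPM in UG-LIKE and at 274, 289 and 595 TPM in MAT + COL. The groups overlapped throughout, and the MAT + COL libraries alone held both the lowest and the highest value of the 9.

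IDI1 (ENSBTAG00000004075, chromosome 13, 46322183 to 46329250, plus strand) encodes isopentenyl diphosphate isomerase, which interconverts the isoprenoid building units. CYST replicates 1, 2 and 3 had 227, 241 and 161 TPM. UG-LIKE had 171, 147 and 153 TPM, and MAT + COL had 135, 118 and 162 TPM. CYST replicates 1 and 2 lay above every library with EGF, while CYST replicate 3 lay among them.

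FDFT1 (ENSBTAG00000012432, chromosome 8, 7591014 to 7624454, minus strand) encodes squalene synthase, the first enzyme committed to sterols. Its values were close in CYST, with 417, 438 and 398 TPM, and closer in UG-LIKE, with 373, 373 and 385 TPM. MAT + COL had 277, 306 and 396 TPM. In TPM, every CYST library was above every library with EGF, although CYST replicate 3 and MAT + COL replicate 3 were separated by little.

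SQLE (ENSBTAG00000005498, chromosome 14, 15144672 to 15167610, minus strand) encodes squalene epoxidase, a rate-limiting oxygenation step. SQLE was at 179.6, 259 and 175 TPM in CYST, at 111, 157 and 141 TPM in UG-LIKE and at 139, 137 and 173 TPM in MAT + COL. In TPM, CYST was again above all libraries with EGF. CYST replicate 2 was far above the rest, and MAT + COL replicate 3 was just under the lowest CYST value.

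DHCR7 (ENSBTAG00000016465, chromosome 29, 48285096 to 48304702, minus strand) encodes 7-dehydrocholesterol reductase, which carries out the last step of one route to cholesterol. In CYST it had 219, 168 and 102 TPM, in UG-LIKE 175, 121 and 97.1 TPM, and in MAT + COL 132, 92.0 and 136 TPM. Replicate 1 was the highest and replicate 3 the lowest in both CYST and UG-LIKE, and the spread between replicates was as wide as that between groups.

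INSIG1 (ENSBTAG00000001592, chromosome 4, 117125433 to 117138560, plus strand), the sterol-dependent brake on SREBP2, had 76.2, 73.9 and 78.6 TPM in CYST and 62.7, 60.1 and 57.7 TPM in UG-LIKE. These groups did not overlap, and the SD was 2.34 TPM in CYST and 2.48 TPM in UG-LIKE. In MAT + COL, INSIG1 was at 41.5, 60.4 and 74.2 TPM, a range that runs from below UG-LIKE into the CYST values.

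SREBF2 (ENSBTAG00000014265, chromosome 5, 112832188 to 112890165, plus strand), the transcription factor gene, had 15.4, 18.5 and 14.9 TPM in CYST. UG-LIKE had 13, 15.1 and 18.9 TPM and MAT + COL had 16.7, 14.0 and 18.0 TPM. The 3 groups overlapped fully and their means were within 1 TPM of each other.

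**Figure D1:**
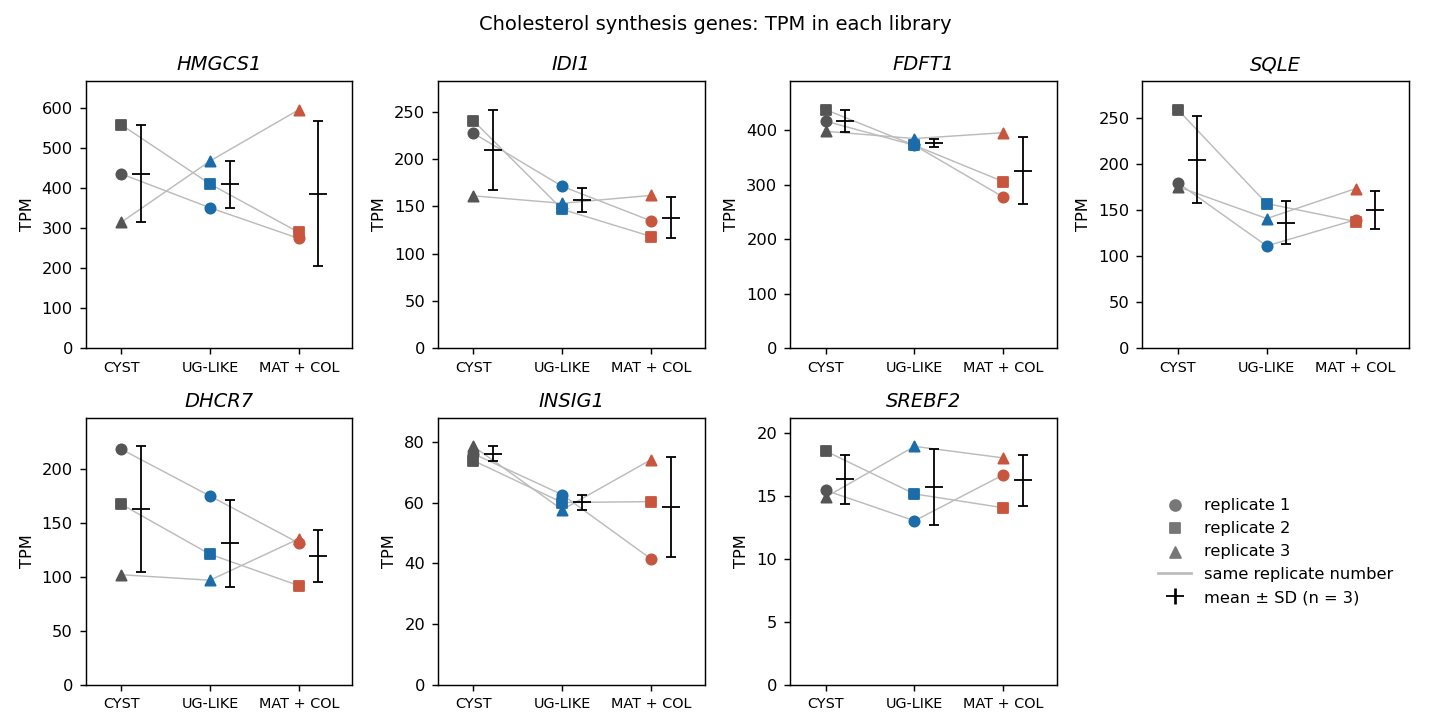
TPM of each cholesterol gene (vertical axes, from 0) in the 9 libraries of CYST, UG-LIKE and MAT + COL, with 1 point per library, marker shape for the replicate number, grey lines that join the same number, and bars for the mean ± SD (n = 3). SQLE, FDFT1 and INSIG1 in CYST sit above all UG-LIKE libraries, whereas HMGCS1 and SREBF2 overlap in all groups.

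The first comparison asked how the cholesterol genes differed between glands with and without EGF. UG-LIKE had a lower mean TPM than CYST for all 7 genes, but no gene passed the test (adjusted p under 0.05 in edgeR's quasi-likelihood test), against 1.79% of the 12074 genes tested. DESeq2, and limma on log2(TPM + 1), also called 0 of the 7. The stricter DEG criteria, which add a Log2FC of more than 1 in size and over 1 TPM in each library, were met by none of the 7 genes and by 1.45% of all genes. Log2FC (log2 fold change, UG-LIKE over CYST) ran from -0.59 to -0.06 with a median of -0.30, where the median over all genes tested was 0.01 and 49.2% of them were below 0. At an unadjusted p under 0.05, SQLE and IDI1 were reached, 2 of the 7 genes, against 11.3% of all genes in the lower direction.

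SQLE had the largest difference, with mean TPM of 136 ± 23.3 in UG-LIKE and 205 ± 47.1 in CYST (SD, n = 3). Its Log2FC was -0.59 (SE 0.21, 95% interval -1.07 to -0.10, edgeR adjusted p = 0.165), or 0.667 times the CYST level. IDI1 had 157 ± 12.6 and 209.6 ± 42.6 TPM, with a Log2FC of -0.41 (SE 0.17, interval -0.80 to -0.02, edgeR adjusted p = 0.221). These intervals are for 1 gene at a time and are not adjusted for the number of genes tested, which is why they can leave out 0 where the adjusted p misses the threshold.

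INSIG1 had 60.2 ± 2.48 TPM in UG-LIKE and 76.2 ± 2.34 TPM in CYST, with a Log2FC of -0.37 (SE 0.18, edgeR adjusted p = 0.287). DHCR7 had 131 ± 40.0 and 163 ± 58.5 TPM (Log2FC -0.30, interval -0.94 to 0.34, edgeR adjusted p = 0.587), and without CYST replicate 1 its Log2FC was -0.04. FDFT1 had 377 ± 7.2 and 418 ± 19.9 TPM (Log2FC -0.16, interval -0.55 to 0.22, edgeR adjusted p = 0.634). The intervals of DHCR7 and FDFT1 hold both no difference and a lower level in UG-LIKE.

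HMGCS1 and SREBF2 were the nearest to no difference. HMGCS1 had 409 ± 58.3 and 436 ± 122 TPM (Log2FC -0.07, interval -0.56 to 0.41, edgeR adjusted p = 0.884). SREBF2 had 15.7 ± 2.99 and 16.3 ± 1.98 TPM (Log2FC -0.06, interval -0.57 to 0.45, edgeR adjusted p = 0.914).

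By TPM, the UG-LIKE and CYST libraries did not overlap for 3 of the 7 genes (SQLE, FDFT1 and INSIG1, all lower in UG-LIKE), against 11.8% of all genes in that direction. By TMM-normalized CPM (counts scaled to library size but not to gene length) they did not overlap for 3 genes, SQLE, IDI1 and INSIG1, against 13.8%. IDI1 and FDFT1 therefore changed sides with the scaling of the libraries, since a gene has the same length in each. In CYST replicate 3, the ferritin gene FTH1 took 12% of all TPM, the highest share of the 9 libraries, where the lowest was 3.41%, and its part in this was not tested. Libraries with the same replicate number deviated together, and within such pairs SQLE, IDI1, FDFT1, DHCR7 and INSIG1 were lower in UG-LIKE in 3 of 3, against 24.7% of all genes. When the replicate number entered as a block, 10.6% of all genes were called, yet none of the 7 genes passed, and SQLE came nearest (Log2FC -0.59, SE 0.155, edgeR adjusted p = 0.051). SQLE passed where all 9 libraries and the block were in the fit (edgeR adjusted p = 0.0355), for which the share of all genes called was not taken.

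**Figure D2:**
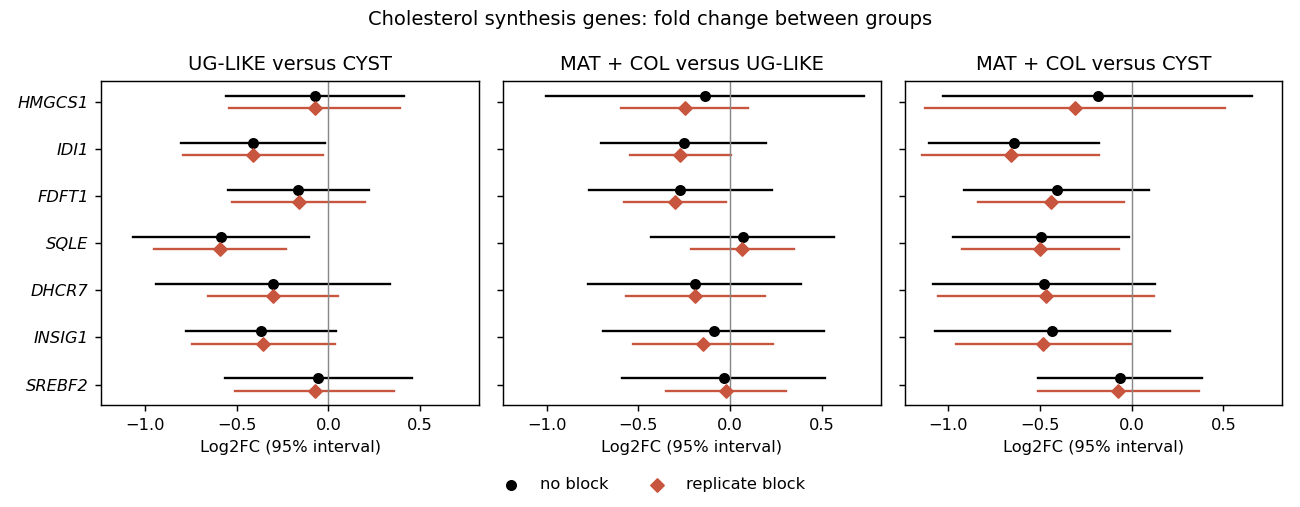
Log2FC of each cholesterol gene (horizontal axis, log2 scale) in UG-LIKE versus CYST, MAT + COL versus UG-LIKE and MAT + COL versus CYST, with bars for the 95% interval, black without and red with the replicate number as a block. Nearly all points lie left of 0, by at most 0.59 in the first panel, and most intervals hold 0.

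The second comparison asked what collagen I added to glands that already had EGF. No cholesterol gene passed the test between MAT + COL and UG-LIKE, with an edgeR adjusted p of 1 for each of the 7, and no gene passed among the 12470 tested (0%). DESeq2 also called 0, and edgeR reached an unadjusted p under 0.05 for 51 genes (0.409%), of which none was a cholesterol gene. Log2FC ran from -0.27 for FDFT1 to 0.07 for SQLE, with a median of -0.14 against -0.00 for all genes, and 6 of the 7 genes were below 0 against 50.1% of all. By TPM none of the 7 genes was free of overlap between these groups, against 3.57% of all genes.

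MAT + COL replicate 3 had the highest TPM of its group for all 7 genes. HMGCS1 had 386 ± 181 TPM in MAT + COL (Log2FC -0.14, SE 0.368, interval -1.0 to 0.73), and without MAT + COL replicate 3 its Log2FC was -0.66. FDFT1 had 326 ± 61.8 TPM (Log2FC -0.27, interval -0.77 to 0.23) and IDI1 had 138 ± 22 TPM (Log2FC -0.25, interval -0.70 to 0.20). The 3 intervals hold 0 as well as lower levels in MAT + COL, and that of HMGCS1 reaches farthest on both sides. DHCR7 had 119.7 ± 24.1 TPM (Log2FC -0.19) and INSIG1 had 58.7 ± 16.4 TPM (Log2FC -0.09). SQLE, at 150.0 ± 20.1 TPM, had a Log2FC of 0.07 (interval -0.43 to 0.57), and SREBF2, at 16.2 ± 2.01 TPM, had one of -0.04. SQLE was the gene with a higher fitted level in MAT + COL. With the replicate block FDFT1 had an unadjusted p of 0.0364 in edgeR (Log2FC -0.30, SE 0.125), where 2.8% of all genes were under 0.05 in that direction, and its adjusted p was 0.955.

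MAT + COL was also set against CYST, which differs from it in both EGF and collagen I and shares its CYST libraries with the first comparison. Again no cholesterol gene passed, against 1.49% of the 12509 genes tested, or 1.13% by the DEG criteria, which none of the 7 met. All 7 had a Log2FC below 0, with a median of -0.43 against 0.04 for all genes, of which 47% were below 0. IDI1 had the largest difference (Log2FC -0.64, SE 0.198, interval -1.10 to -0.18, edgeR adjusted p = 0.123), or 0.641 times the CYST level. SQLE followed (Log2FC -0.49, interval -0.97 to -0.01, edgeR adjusted p = 0.222), and these were the 2 genes at an unadjusted p under 0.05, against 11.3% of all genes in that direction.

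DHCR7 (Log2FC -0.48), INSIG1 (-0.43) and FDFT1 (-0.41) had edgeR adjusted p of 0.332, 0.408 and 0.322. HMGCS1 (Log2FC -0.19) and SREBF2 (-0.06) had edgeR adjusted p of 0.812 and 0.885. By fitted Log2FC, HMGCS1 and SREBF2 were thus again the nearest to no difference. The interval of HMGCS1, from -1.03 to 0.66, was however the widest of the 7 genes. By TPM, SQLE and FDFT1 did not overlap between MAT + COL and CYST, 2 of the 7 genes against 10.3% of all genes in that direction. By TMM-normalized CPM both overlapped. In CYST replicate 1 SQLE was at 166 CPM and FDFT1 at 464 CPM. In MAT + COL replicate 3 they were at 177 and 485 CPM. IDI1 alone of the 7 did not overlap by CPM, for which the share of all genes is not given here. Without MAT + COL replicate 3, HMGCS1 had a Log2FC of -0.72, INSIG1 of -0.69 and FDFT1 of -0.63, and no gene passed in edgeR whichever library was left out. DESeq2 called IDI1 here (adjusted p = 0.0353, Log2FC -0.65), where it called 12.2% of all genes.

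Across the 9 libraries, most pairs of the cholesterol genes had a positive r, and pairs outside the 7 genes were not measured for comparison. Over the 21 pairs of the 7 genes, Pearson's r of log2 CPM was positive for 20, with a median of 0.618, and with the group means taken out the median was 0.604 and 17 were positive. The highest r was between INSIG1 and FDFT1 (0.91), and the lowest was between DHCR7 and SREBF2 (-0.24). DHCR7 had a median r of 0.277 to the remaining genes, and of -0.06 with the group means taken out. Its r to IDI1 was nonetheless 0.724, and 0.625 with the group means taken out. Pairs without DHCR7 could be weaker, such as IDI1 and SREBF2 (0.313). All 4 pairs with a negative r after that step were pairs of DHCR7. The points share 9 libraries, 3 groups and the pairing by replicate number, so these values are descriptions.

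The mean z of the 7 genes (each gene's log2 CPM in SDs from its mean of the 9 libraries) was 0.50, 0.79 and 0.60 in CYST replicates 1, 2 and 3. UG-LIKE had -0.34, -0.19 and 0.30. MAT + COL had -1.29, -1.05 and 0.68, so that its replicate 3 lay with the CYST libraries and its replicates 1 and 2 were the lowest of all. Summed TPM of the 7 genes gave the same order for MAT + COL, with 1015, 1017 and 1554, whereas CYST had 1570, 1756 and 1244 and UG-LIKE had 1256, 1283 and 1320. Replicate 3 was also the library with the most stromal marker TPM in each group, and its part in these values was not tested.

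**Figure D3:**
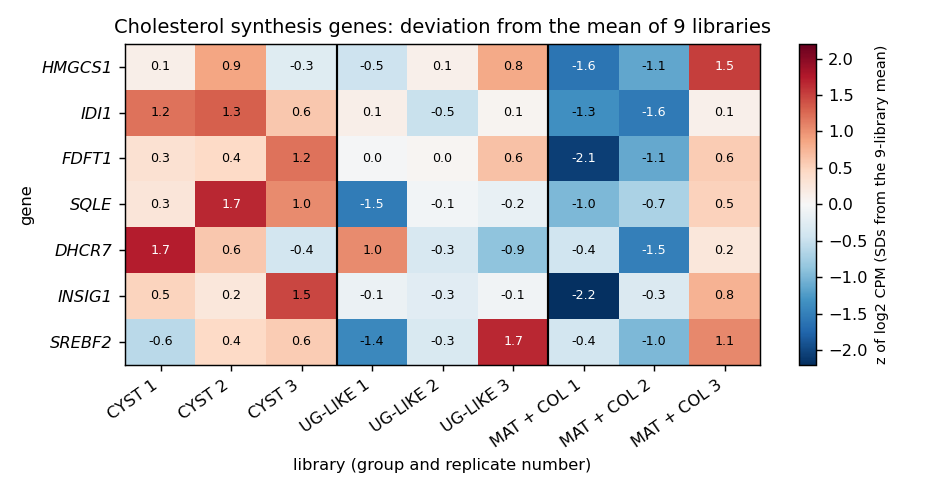
Deviation of each cholesterol gene (rows) from its mean over the 9 libraries (columns, by group and replicate number), as z of log2 CPM, red above and blue below. MAT + COL replicates 1 and 2 are blue for all 7 genes, and MAT + COL replicate 3 is red for all 7, palest for IDI1.

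Genes whose log2 CPM was most like the mean z of the 7 genes over the 9 libraries, among 12851 genes, were JPT1 (r = 0.964), HIRA (0.951), the tubulin gene TUBB (0.95), LPAR3 (0.947), a receptor for lysophosphatidic acid, and LSM12 (0.941). With the group means taken out their r was 0.947, 0.936, 0.91, 0.928 and 0.958 in that order. This put them at ranks 11, 17, 47, 23 and 8, and none was among the nearest 5. The 5 genes were picked by their r in these same 9 libraries, so the later values are no independent check.

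The other genes of sterol metabolism were taken from lists by role, which hold the 7 genes and 55 more. In UG-LIKE versus CYST, 0 of the 55 passed in edgeR without the block, 5 passed in DESeq2 (10.6% of all genes) and 1 in limma (1.98%), and 12 had an unadjusted p under 0.05 in edgeR, against 20.7% of all genes. A total of 34 had a Log2FC below 0 (median -0.14). With the replicate block 7 passed, 4 lower in UG-LIKE, against 5.67% of all genes, and 3 higher, against 4.9%. Log2FC values below are from the fit without the block.

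Of the 8 genes from acetyl-CoA to farnesyl diphosphate, 7 had a Log2FC below 0 (median -0.49). Here 2 fell with the block. MVD, which makes isopentenyl diphosphate, had 109.6, 111 and 80.7 TPM in CYST and 73.8, 57.3 and 51.2 TPM in UG-LIKE, with a Log2FC of -0.73 and an edgeR adjusted p of 0.0795 without and 0.0352 with the block. FDPS, farnesyl diphosphate synthase, had 142, 108 and 56.3 TPM in CYST and 64.1, 48.9 and 51.3 TPM in UG-LIKE, with a Log2FC of -0.88 and an edgeR adjusted p of 0.126 without and 0.0463 with the block. By TPM, MVD did not overlap between the groups, where 11.8% of all genes were separated in that direction, and FDPS overlapped. Without CYST replicate 1 the Log2FC of FDPS was -0.57, in the fit without the block.

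From squalene to lanosterol, LSS (lanosterol synthase) had a Log2FC of -0.20 beside those of FDFT1 and SQLE. Of the 10 genes from lanosterol to cholesterol, 7 were below 0 (median -0.26). LBR, a sterol reductase that is also the lamin B receptor of the nuclear envelope, fell with the block, from 85.6, 90.0 and 60.2 TPM in CYST to 31.1, 52.9 and 41.2 TPM in UG-LIKE (Log2FC -0.90, edgeR adjusted p = 0.0816 without and 0.0342 with the block).

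Sterol sensing and SREBP processing, the list of INSIG1 and SREBF2, was split, with 4 of 7 genes below 0 (median -0.06). The largest differences had the opposite sign to INSIG1 and did not pass. SCAP, the escort of SREBP2, had a mean of 7.48 TPM in UG-LIKE and 4.32 TPM in CYST (Log2FC 0.80, SE 0.55, edgeR adjusted p = 0.455), and its Log2FC was 0.34 without UG-LIKE replicate 3 and 1.34 without CYST replicate 1. For MBTPS2, a protease that releases SREBP2, the means were 29.4 and 21.0 TPM (Log2FC 0.48, edgeR adjusted p = 0.285).

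Of the 10 genes of lipoprotein uptake and lysosomal release of cholesterol, 5 were below 0, and 2 rose with the block. The list's median was 0.11 without and -0.01 with the block, so its sign depended on the fit. LRP1, a receptor of the lipoprotein receptor family, had 6.86, 14.7 and 5.66 TPM in CYST and 18.7, 22.1 and 21.7 TPM in UG-LIKE (Log2FC 1.23, edgeR adjusted p = 0.0732 without and 0.0177 with the block). NPC2, which hands cholesterol out of the lysosome, had 239, 266 and 264 TPM in CYST and 433, 478 and 517 TPM in UG-LIKE (Log2FC 0.87, edgeR adjusted p = 0.0621 without and 0.0178 with the block). Both had a Log2FC above 0, whereas the 7 genes had Log2FC below 0. LRP1 and NPC2 were also higher in every UG-LIKE library than in any CYST library. The share of all genes separated in that direction is not given here, so this is a description.

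Among 7 genes of efflux, esterification and the sterol receptor LXR, 3 were below 0 (median 0.32). The exporters ABCA1 and ABCG1, which pass cholesterol to lipoproteins, had Log2FC of 0.81 and 0.61 and did not pass with or without the block. Among 9 genes of the branches that leave the mevalonate pathway, 5 were below 0 (median -0.05), and neither PDSS1 (Log2FC -1.72, mean 1.10 and 3.50 TPM) nor DHDDS (0.39) passed. These enzymes serve the side chain of coenzyme Q and dolichol.

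Of 8 fatty acid targets of the SREBP family, 7 were below 0 (median -0.33). ELOVL6, a fatty acid elongase, fell with the block (Log2FC -0.67, mean 161 and 262 TPM in UG-LIKE and CYST, edgeR adjusted p = 0.408 without and 0.0384 with it). Without the block, its Log2FC was -0.34 when UG-LIKE replicate 3 was left out, -0.44 when CYST replicate 2 was, and -1.03 when UG-LIKE replicate 2 was. ACSS2, which makes acetyl-CoA from acetate, rose with the block, from 108, 74.3 and 79.6 TPM to 153, 116 and 163 TPM (Log2FC 0.71, edgeR adjusted p = 0.135 without and 0.0342 with it).

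**Figure D4:**
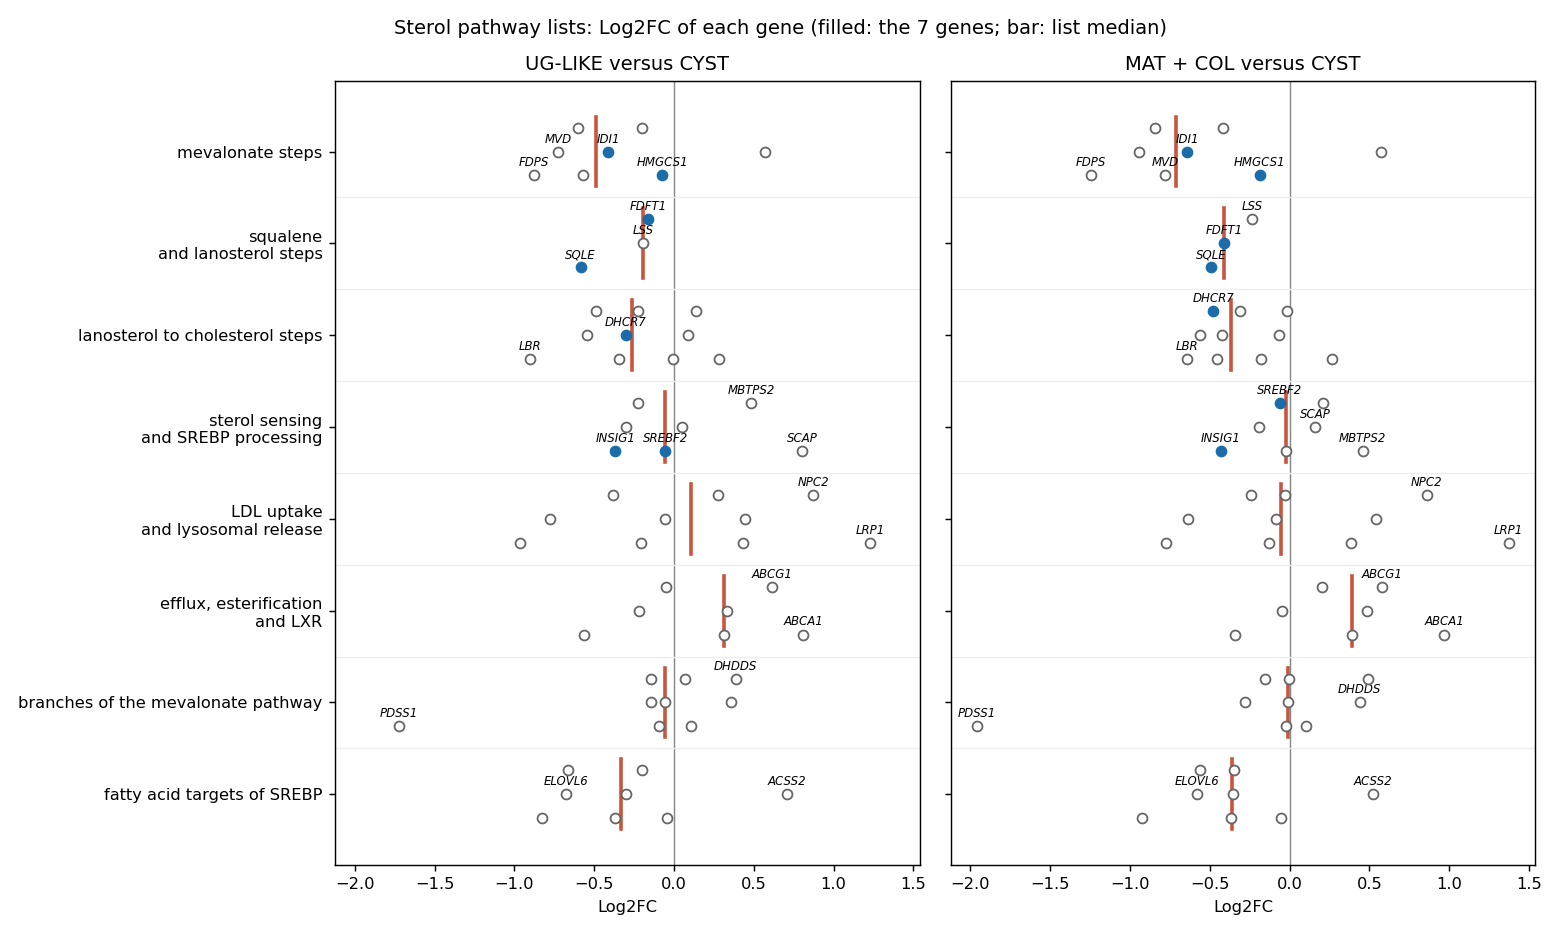
Log2FC (horizontal axes) of 62 sterol pathway genes by list, in UG-LIKE versus CYST and in MAT + COL versus CYST, with 1 point per gene, filled for the 7 cholesterol genes, and a red bar at the list's median. Medians of the synthesis and fatty acid lists lie left of 0 in both panels, and LRP1 and NPC2 lie at the right.

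MAT + COL versus CYST, which shares the CYST libraries, gave the mevalonate list a median of -0.71 (7 of 8 below 0) and the lanosterol to cholesterol list one of -0.37 (9 of 10). Again 0 of the 55 passed in edgeR without the block and 15 had an unadjusted p under 0.05, against 21.7% of all genes. DESeq2 called 8, against 12.2% of all genes, and limma 1, against 1.46%. With the block 3 passed, 1 lower (2.58% of all genes) and 2 higher (2.68%). LRP1 (Log2FC 1.37, edgeR adjusted p = 0.0303 with the block) and NPC2 (0.86, edgeR adjusted p = 0.0334 with the block) rose. MVK, mevalonate kinase, fell (Log2FC -0.94, edgeR adjusted p = 0.066 without and 0.0489 with the block) and is named here after its values were seen. FDPS (Log2FC -1.24, edgeR adjusted p = 0.0767) and MVD (-0.78, 0.0784) did not pass without the block. In MAT + COL versus UG-LIKE, 0 of the 55 passed with or without the block in edgeR, in DESeq2 or in limma, 0 had an unadjusted p under 0.05 without the block, and the list medians ran from -0.25 for the mevalonate steps to 0.12 for efflux.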

How the data were processed

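Bovine uterine gland cultures on day 5 gave 9 libraries in 3 groups, taken from the sample labels. Per the labels and the study's methods, SMART-Seq libraries were read as paired ends and aligned to ARS-UCD 2.0 in CLC Genomics Workbench 25.0.1. The authors deposited raw counts per gene and, in a second file, TPM of the same genes. The strand setting and the handling of reads shared by near-identical copies are not given in the sources used here, so values of genes with close copies are uncertain.

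Tests on the counts used edgeR 4.0.16 (R 4.3.3), with filterByExpr by group (minimum count of 10), TMM, and glmQLFit and glmQLFTest on the 6 libraries of a comparison, two-sided, with Benjamini-Hochberg adjustment over all genes tested. TPM served for levels and overlap. Intervals are 95% from the fit. Log2 CPM had a prior count of 2. Alternatives were DESeq2 1.42.0, limma 3.58.1 on log2(TPM + 1) and other normalizations, filters and sample sets. The fits were tested on simulated data. At a simulated Log2FC of 1.5, 30.5% of the changed genes were recovered in UG-LIKE versus CYST. The share was 25.5% in MAT + COL versus UG-LIKE and 37.5% in MAT + COL versus CYST. At a Log2FC of 3 the shares were 81.5%, 79% and 84.5% in that order. The changed genes were drawn at random from all genes tested, at any read count, so these shares are not those of the cholesterol genes. Differences as small as those of the cholesterol genes were not simulated. A cholesterol gene that did not pass is therefore not shown to be unchanged.

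The sample titles number replicates 1 to 3 in each group, while the library names carry their own numbers that do not all match between groups. The replicate number of the titles is the one used here. Libraries that share a number departed from their group means together, with correlations of 0.329 to 0.437 (UG-LIKE and CYST), 0.471 to 0.687 (MAT + COL and UG-LIKE) and 0.278 to 0.350 (MAT + COL and CYST), all above the limit of 0.1 set for pairing, so a second fit took the number as a block. The study's text speaks of individuals when it describes how the UG-LIKE and MAT + COL libraries cluster, but the labels tie no replicate number to an animal, so p-values measure the spread between these libraries.

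The genes and lists were chosen with earlier results of these data known. Named were the 7 genes, every list gene with an adjusted p under 0.05 in UG-LIKE versus CYST with or without the block, otherwise the 2 with the largest absolute Log2FC of a list, the 5 genes most like the mean of the 7, and the markers beside a result. Of 63 listed symbols, 62 were found. Gene positions, strands and Ensembl IDs are those that the authors gave with the counts, on ARS-UCD2.0. Figures were drawn with matplotlib 3.10.9.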

Additional observations from a re-analysis of the deposited data

How the results depend on the processing

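Of 294 alternative values for the 7 cholesterol genes, 274 kept direction and side of the threshold, 17 reversed and 3 passed. The adjusted p passed in 1 gene with all 9 libraries and the replicate block in UG-LIKE versus CYST (SQLE, edgeR adjusted p = 0.0355), and in MAT + COL versus CYST in 1 gene so fitted (IDI1, edgeR adjusted p = 0.0318) and in 1 with DESeq2 (IDI1). Pairing by the replicate block alone changed no call of the 7 genes. Of the 55 other genes, in UG-LIKE versus CYST, 7 passed with the replicate block, 7 with all 9 libraries and the block, 2 with all 9 libraries, 5 with DESeq2 and 1 with limma. In MAT + COL versus CYST these counts were 3, 10, 4, 8 and 1, and leaving out each library in turn gave 0 to 1 (MVK, without MAT + COL replicate 3). The share of all genes called was not taken for fits of all 9 libraries or with a library left out. Counts from those fits, and their calls of SQLE and IDI1, thus have no share of all genes to be set against. With group means taken out, 0 of the 5 most alike genes were among the nearest 5, with r of 0.91 to 0.958 and ranks of 8 to 47 among 12851 genes. SREBF2 in MAT + COL versus UG-LIKE reversed with total counts (Log2FC 0.0081) and with limma (0.0548).

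Leaving out each library in turn gave Log2FC ranges that crossed 0. In UG-LIKE versus CYST they were -0.21 to 0.11 for HMGCS1, -0.24 to 0.13 for SREBF2, -0.29 to 0.0866 for LSS and -0.26 to 1.29 for ABCG1. In MAT + COL versus UG-LIKE they were -0.66 to 0.10 for HMGCS1, -0.10 to 0.18 for SQLE, -0.34 to 0.15 for INSIG1, -0.35 to 0.0391 for DHCR7 and -0.17 to 0.16 for SREBF2. In MAT + COL versus CYST they were -0.72 to 0.052 for HMGCS1 and -0.20 to 0.00605 for SREBF2. Ranges in UG-LIKE versus CYST that did not cross 0 were -0.69 to -0.40 for SQLE, -0.48 to -0.33 for IDI1, -0.41 to -0.23 for INSIG1, -0.20 to -0.09 for FDFT1, -0.50 to -0.04 for DHCR7, -1.11 to -0.57 for FDPS, -1.03 to -0.34 for ELOVL6 and 0.34 to 1.34 for SCAP. The cause of these shifts was not tested. Calls made with the block were not refitted without single libraries.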
